A study of Vitis vinifera with 165 samples.

Results

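The 100 gene models described here rose most between day 21 after veraison and the last weeks before harvest in grape berries (Vitis vinifera) of the cultivar Pinot noir. They were chosen by their measured levels on day 21, around veraison and on the late days. Veraison is the point at which a berry softens, colours and begins to load sugar, and days are counted from it. The members came from 20460 gene models with an RPKM (read number scaled to the length of the gene model and the size of the library) of at least 1 in at least 3 of 165 libraries. On the scale log2(RPKM + 1), with both thinning levels averaged, 17134 of these differed by less than 1 between day 21 and the mean of days -9 to 0, averaged over the seasons. The 100 with the largest rise from day 21 to the mean of days 32 and later were kept, taking for each gene model the smallest rise of the seasons 2012, 2013 and 2014. Of the members, 98 also reached the filter in libraries before day 32 and 2 did not.

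The berries were the pericarp, skin and flesh without seeds, of vines of clone FPS 23 grafted on Freedom rootstock. Every vine had lost clusters once fruit had set, which reduced the crop by 50% or 75%, and unthinned vines were not analysed here. Each sample pooled 60 berries of 6 clusters from blocks of 8 vines, with 3 rows per treatment, and each of the 55 groups of season, thinning level and day held 3 such samples. The late days were 32, 34 and 42 in 2012 (12 libraries), 35 and 37 in 2013 (12 libraries), and 35, 38, 42 and 49 in 2014 (21 libraries). Day 34 of 2012 and day 38 of 2014 were sampled at 75% thinning only, and day 42 of 2012 at 50% only. The labels do not tie replicate numbers to rows or blocks, so the p-values reflect only how far these pools differ from each other, which may be technical. In bulk pericarp, fewer cells of a type and less RNA per cell cannot be told apart.

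Berries ripen in stages. Before veraison they are green, firm and acidic. At veraison sugar import, softening and pigment synthesis start, and many transcripts change together. In the last weeks sugar import slows, the berries lose water, and compounds of aroma and defence are known to change in grape skin. Genes that move only in these last weeks are used in grape research to tell a berry that has coloured from one that is ready to pick. The table gives gene model IDs without names or functions, so the members are described by ID, level and time course.

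Total RPKM per library lay between 876732 and 1405120, and replicates of a group correlated across gene models with a median r of 0.987 (range 0.915 to 0.992). The lowest of these correlations and the highest total belonged to replicate 2 of 75% thinning on day 0 of 2012. Without that library the rule chose the same 100 gene models. Other settings changed the choice more. Averaging late days over group means shared 94 of the 100, and giving every library the same distribution of values (quantile normalization) shared 73. Adding 0.1 in place of 1 before the log2 shared 43. Leaving out replicate 1, 2 or 3 of every group shared 81, 83 and 84. A second library stood apart in the members themselves. On day 28 of 2014, replicate 2 of 50% thinning had a sugar content of 18.33 g per 100 ml, against 21.68 to 24.15 in the other 5 libraries of that day, and it was the lowest library of that day in 89 of the 100 members, against 37.2% of all gene models tested. The counts of members on day 28 are also given without it where they moved.

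The values that chose the members are a description and were not tested. The rise from day 21 to the late days had a median over members of 1.04 in 2012, 0.90 in 2013 and 1.09 in 2014 on the log2(RPKM + 1) scale. The season with the smallest rise was 2013 for 45 members, 2012 for 36 and 2014 for 19. From veraison to day 21 the change was positive in 75 members and negative in 25, with a median of 0.39.

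VIT_04s0008g01280 had the largest value of the rule, a rise of at least 1.98 in each season. It stood between 2.74 and 7.05 RPKM on day 21, with a median of 5.24 over 18 libraries, and between 12.9 and 56.5 RPKM on days 32 and later, with a median of 27.1 over 45 libraries. Every late library was above every library of day 21. VIT_04s0043g00840 was next at 1.58, with 1.33 to 4.31 RPKM on day 21 (median 2.76) and 4.47 to 51.2 RPKM late (median 12.5). Its groups did not overlap either. VIT_00s0239g00090, at 1.56, was a different case. It was listed at 0 in 30 of 165 libraries, 8 of them among the 18 of day 21, where its highest value was 8.24 RPKM. Late it ranged from 0.604 to 30.8 RPKM with a median of 8.54, so its libraries of day 21 and of the late days overlapped widely.

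VIT_11s0037g00890 and VIT_00s0173g00060 followed, both with a smallest rise of 1.41. The first went from 0.449 to 3.11 RPKM on day 21 (median 1.45) to 1.17 to 28.3 RPKM late (median 8.60). The second went from 1.21 to 4.04 RPKM (median 2.58) to 2.68 to 26.7 RPKM (median 9.36). In both, the lowest late libraries lay inside the range of day 21. VIT_16s0039g00500 had a value of 1.28, VIT_01s0011g04380 of 1.26, VIT_00s0276g00020 of 1.21, VIT_00s0253g00150 of 1.19 and VIT_12s0028g01720 of 1.18. Among these, VIT_01s0011g04380 was the lowest starter, at 0.0823 to 1.20 RPKM on day 21 (median 0.416) against 1.13 to 7.93 RPKM late (median 2.74). VIT_00s0276g00020 stood at 1.79 to 5.16 RPKM on day 21 (median 2.78) and 4.57 to 13.7 RPKM late (median 9.24).

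At the edge of the rule, VIT_08s0007g04870, VIT_14s0068g00730 and VIT_18s0001g10150 were the last inside, each at 0.68. The first outside was VIT_14s0030g00480, also at 0.68, followed by VIT_14s0128g00850 and VIT_06s0004g00710 at 0.67. The limit therefore fell within a run of nearly equal values. VIT_08s0007g04870 went from 25.3 to 39.8 RPKM on day 21 (median 34.7) to 39.8 to 83.0 RPKM late (median 54.8), and VIT_14s0030g00480 from 9.87 to 13.8 RPKM (median 11.9) to 14.2 to 27.2 RPKM (median 20.4). Day 21 and the late days were apart in VIT_14s0030g00480 and met at 39.8 RPKM in VIT_08s0007g04870.

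**Figure D1:**
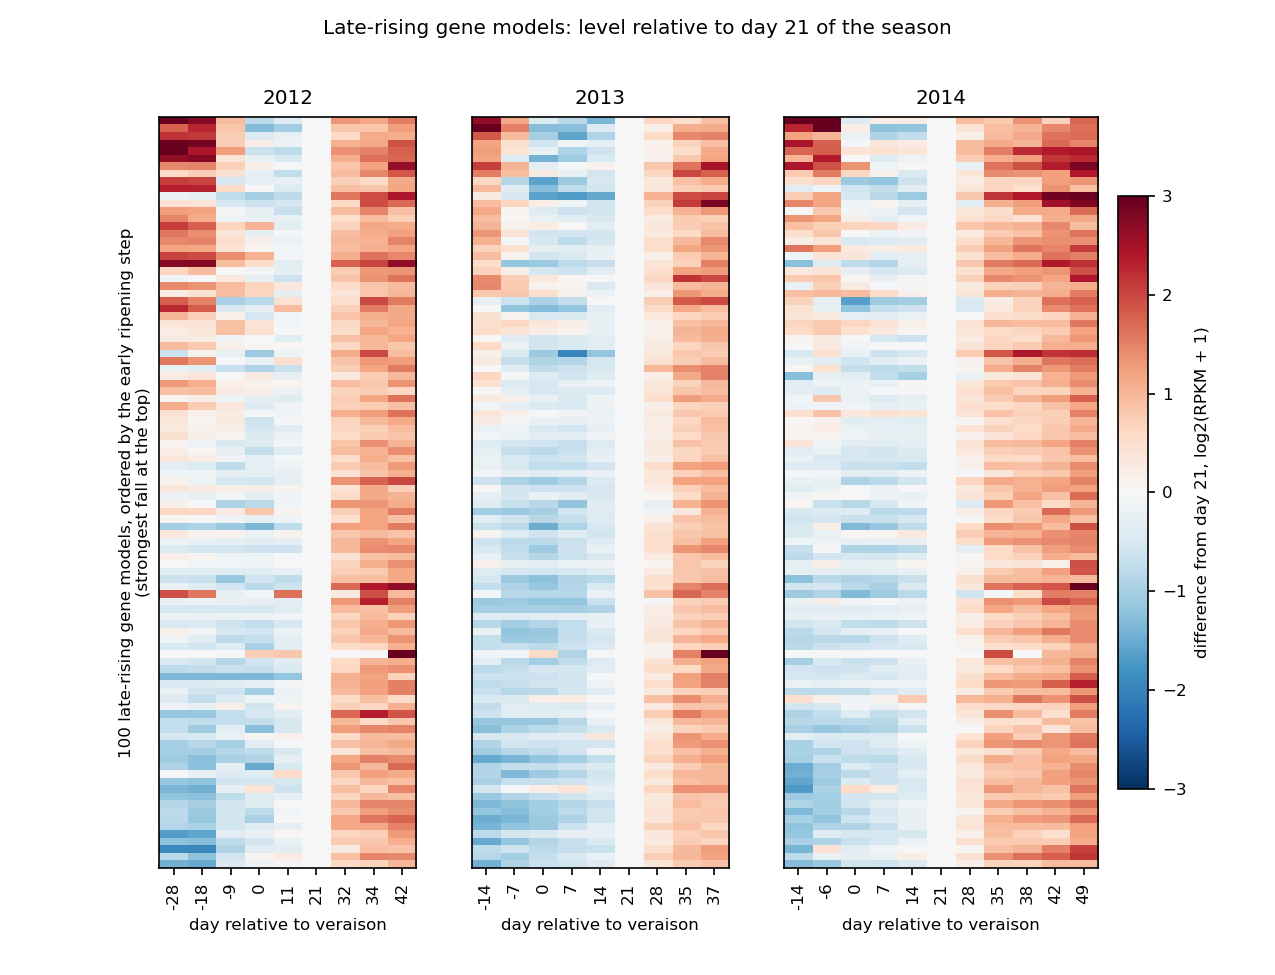
Group means of the 100 late-rising gene models on each sampling day of 3 seasons, as the difference from day 21 of the same season on the log2(RPKM + 1) scale, with thinning levels averaged. Rows are gene models ordered by the early ripening step, strongest fall at the top. Red fields on days 32 and later follow from the choice of members, while the red fields before veraison at the top mark members that were high in green berries.

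The members spanned a wide range of levels. Mean RPKM on days 32 and later ranged from 1.19 to 301 with a median of 10.5, against a median of 7.18 over all gene models tested, and the members' median on day 21 was 3.20. Late means of at least 10 RPKM were reached by 51 members and of at least 100 RPKM by 10. VIT_10s0003g03300 was the highest at 301 ± 90.9 RPKM (SD, n = 45), followed by VIT_09s0018g00620 at 238 ± 58.1 and VIT_18s0001g14730 at 177 ± 30.2. VIT_08s0040g01370 stood at 163 ± 49.7, VIT_11s0052g00960 at 163 ± 28.4 and VIT_18s0001g10150 at 160 ± 59.0. VIT_08s0040g01370, VIT_11s0052g00960 and VIT_18s0001g10150 lay within an SD of each other. VIT_13s0101g00460 at 148 ± 16.1, VIT_03s0038g00590 at 139 ± 21.6, VIT_15s0048g01340 at 130 ± 21.9 and VIT_14s0006g02620 at 113 ± 15.4 completed the 10 highest. At the other end, 27 members were listed at 0 in at least 1 library. Depth is unknown in a table of RPKM, so such a 0 is given only as listed.

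Days 14 and 28 of 2013 and 2014 were not used by the rule. They lie on either side of day 21, from which the members' rise was measured. A change between them can thus hold the start of that rise and does not show a rise before day 21. From day 14 to day 28, 94 of the 100 members rose (limma, adjusted p under 0.05), against 28.7% of all gene models tested, and 0 fell, against 25% of all. An unadjusted p under 0.05 in either direction was found in 95 members, against 11890 of the 20460 gene models tested. The change was above 0 in 99 members. The members' median change was 0.65 on the log2(RPKM + 1) scale and that of all gene models 0.02. Past a change of 1 there were 13 members, against 0.499% of all gene models. In 2013 alone 86 members rose (18.5% of all gene models) and 20 passed a change of 1 (0.982%). In 2014 alone 79 rose (26.7%) and 9 passed a change of 1 (0.806%). With the day 28 library of lowest sugar content left out, 83 rose in that season (28.5%) and 20 passed a change of 1 (1.19%). Single libraries overlapped more than these counts show. In 3 members every one of the 12 libraries of day 28 was above every one of the 12 of day 14, against 0.997% of all gene models. Without replicate 2 of 50% thinning on day 28 of 2014 this held for 41 members, against 6.44% of all gene models, while 95 members then rose (30.1%).

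VIT_04s0008g01280 changed most between these days. On day 14 it ranged from 0.0994 to 4.95 RPKM (median 1.76, n = 12) and on day 28 from 3.53 to 18.6 RPKM (median 10.5, n = 12), a change of 2.25 ± 0.16 (log2, SE, adjusted p = 1.56e-23). The ranges overlapped between 3.53 and 4.95 RPKM. VIT_02s0025g02960 went from 1.13 to 6.13 RPKM (median 3.68) to 5.25 to 22.1 RPKM (median 10.4), by 1.37 ± 0.20 (adjusted p = 2.37e-09). VIT_18s0001g12110 went from 0 to 13.6 RPKM (median 6.47, listed at 0 in 1 library) to 7.64 to 21.5 RPKM (median 16.2), by 1.37 ± 0.24 (adjusted p = 8.06e-07). The ranges of both overlapped.

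Among the members with the highest levels, VIT_13s0101g00460 rose from 33.8 to 52.9 RPKM on day 14 (median 48.3) to 57.0 to 138 RPKM on day 28 (median 111), without overlap, by 1.22 ± 0.08 (limma, adjusted p = 4.62e-25). VIT_08s0040g01370 rose from 25.8 to 46.8 RPKM (median 38.8) to 38.0 to 122 RPKM (median 88.1), by 1.20 ± 0.11 (adjusted p = 1.43e-18). VIT_10s0003g03300 rose from 76.2 to 107 RPKM (median 89.5) to 101 to 193 RPKM (median 168), by 0.85 ± 0.10 (adjusted p = 4.79e-13). In the latter pair the lowest library of day 28 lay within the range of day 14. VIT_03s0038g00590 and VIT_14s0006g02620 changed by 0.69 ± 0.06 and 0.68 ± 0.06, and VIT_11s0052g00960 by 0.40 ± 0.12 (adjusted p = 0.00403), the smallest change among the 10 members of highest level.

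The test was missed by 6 members, named here after their values were seen. VIT_00s0239g00090 changed by 0.23 ± 0.40 (log2, SE), VIT_11s0103g00530 by 0.24, VIT_09s0002g03500 by 0.22, VIT_13s0320g00030 by 0.13 ± 0.14, VIT_10s0042g00400 by 0.09 and VIT_03s0017g00730 by -0.10. VIT_00s0239g00090 was listed at 0 in 4 of the 12 libraries of day 14 and 6 of the 12 of day 28. VIT_10s0042g00400 was listed at 0 in 143 of 165 libraries and had a late mean of 15.8 ± 29.3 RPKM (SD). Its rise of 2012 came from day 42, with day means of 0 on days 32 and 34. VIT_13s0320g00030 ranged from 0.107 to 1.04 RPKM on day 14 and from 0.282 to 0.853 RPKM on day 28. These libraries overlapped fully, and its late values of 0.199 to 12.7 RPKM owed their top to day 49 of 2014.

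The week before, from day 7 to day 14, moved the members less, but it is shorter than the interval from day 14 to day 28. Both intervals use the libraries of day 14, so their changes are not independent. The week from day 7 to day 14 lies within the interval, veraison to day 21, on which the rule set its limit. By the same test 35 rose (15.6% of all gene models) and 8 fell (26.5%), and the members' median change was 0.17 against -0.03 for all gene models. VIT_04s0043g00840 was among those that rose, from 0.598 to 1.98 RPKM on day 7 (median 1.09) to 1.39 to 2.83 RPKM on day 14 (median 2.10), by 0.49 ± 0.11 (log2, SE, limma, adjusted p = 4.64e-05). Its ranges overlapped. VIT_11s0037g00890 fell by 0.40 on the log2 scale, from 0.491 to 2.29 RPKM (median 1.35) to 0.0567 to 3.08 RPKM (median 0.463), with an adjusted p of 0.0365. Its ranges overlapped too.

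**Figure D2:**
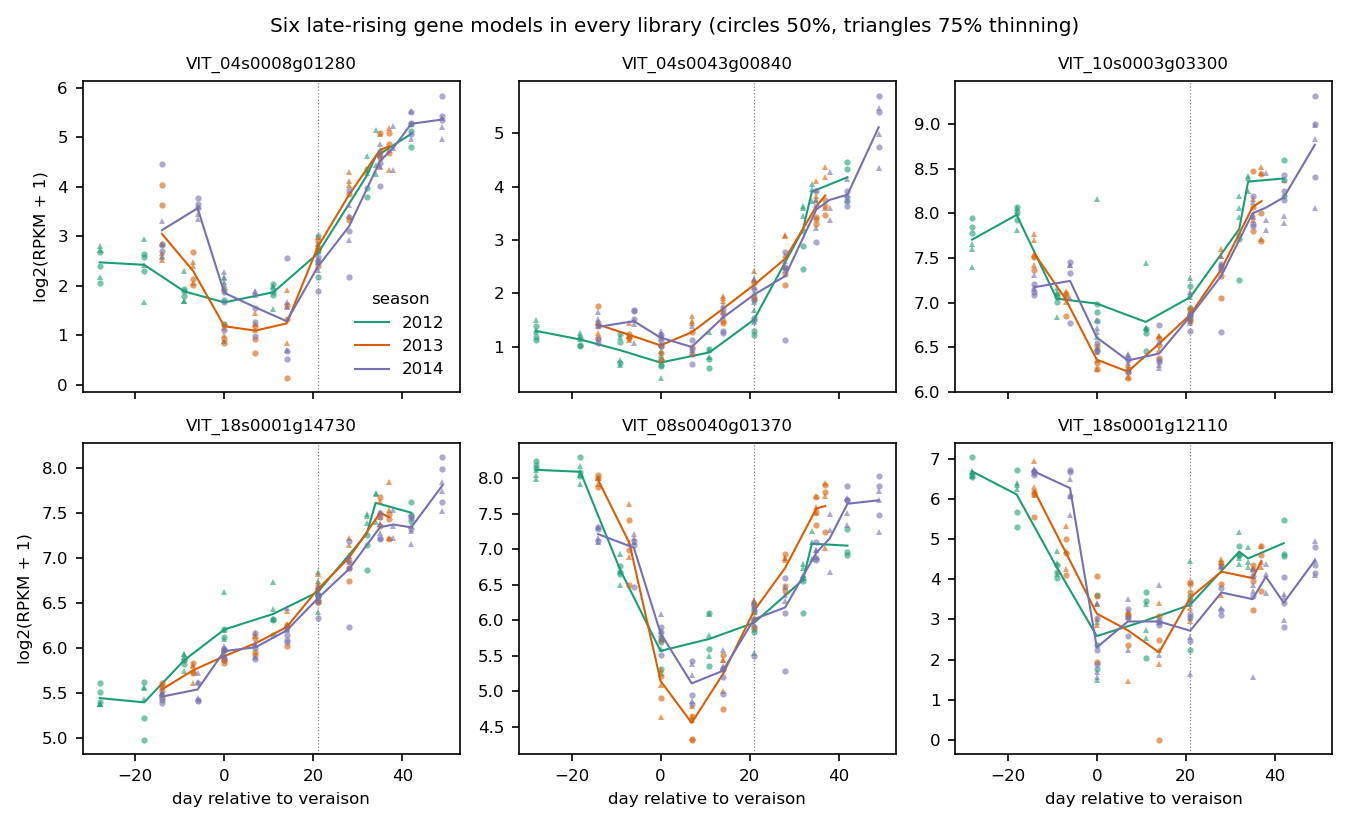
Level of 6 late-rising gene models in every library, on the log2(RPKM + 1) scale, against the day relative to veraison. Points are single libraries, lines join the means of each season, and the dotted line marks day 21. VIT_18s0001g14730 is lower in green berries than on day 21 and higher late in each season. VIT_04s0043g00840 starts low, is higher on day 21 than on day 0 in each season and rises further late. VIT_08s0040g01370 and VIT_18s0001g12110 fall from green berries to a lowest mean between day 0 and day 14 before they rise again.

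Within the late days, whose mean alone entered the rule, the members went on rising in 2014. From day 35 to day 49, 77 members rose (limma, adjusted p under 0.05), against 13.4% of all gene models, and 0 fell, against 7.58%. In either direction, 85 members had an unadjusted p under 0.05, against 6605 of the 20460 gene models tested. Past a change of 1 there were 12 members, against 0.2% of all, and the median change was 0.58 for the members and 0.03 for all gene models. In 38 members each of the 6 libraries of day 49 was above each of the 6 of day 35, against 7.86% of all gene models. Without replicate 1 of each group 37 members rose, against 3.37% of all gene models. Sugar content ranged from 23.91 to 25.63 g per 100 ml on day 35 and from 23.93 to 28.59 on day 49, and total RPKM from 922212 to 966316 and from 876732 to 935601. The part of either in the members' rise was not tested.

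VIT_11s0037g00890 had 3.03 to 5.91 RPKM on day 35 (median 4.81, n = 6) and 14.3 to 27.2 RPKM on day 49 (median 16.0, n = 6), a change of 1.75 ± 0.23 (log2, SE, limma, adjusted p = 1.13e-09). VIT_04s0043g00840 had 6.82 to 14.3 RPKM (median 11.9) and then 19.5 to 51.2 RPKM (median 36.1), a change of 1.54 ± 0.15 (adjusted p = 3.09e-14). VIT_02s0025g00280 had 1.87 to 3.07 RPKM (median 2.61) and then 6.39 to 13.3 RPKM (median 10.3), a change of 1.57 ± 0.38 (adjusted p = 0.00091). In none of these did the libraries of both days overlap. VIT_13s0320g00030 had 0.303 to 1.05 RPKM (median 0.856) and then 0.731 to 12.7 RPKM (median 5.69), a change of 1.60 ± 0.20 (adjusted p = 4.29e-10), with 1 or more libraries of day 49 inside the range of day 35. VIT_13s0101g00460, whose rise between days 14 and 28 was among the strongest, stood at 128 to 151 RPKM on day 35 (median 142) and 117 to 166 RPKM on day 49 (median 142), a change of 0.02 ± 0.12. Its libraries of both days overlapped fully.

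VIT_02s0025g00280 had an uneven record earlier. It reached 241 RPKM in 1 library of day -18 of 2012, 56.1 RPKM on day -28 and 61.4 RPKM on day 11, where the medians were 2.03, 13.6 and 5.19 RPKM. In 2013 and 2014 its libraries before day 21 stayed between 0.224 and 2.82 RPKM. The high values were thus confined, among libraries before day 21, to 2012.

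In 2012 the last interval, day 32 to day 42, was sampled at 50% thinning. There 45 members rose (limma, adjusted p under 0.05), against 3.25% of all gene models, 9 of them by at least 1 (0.259% of all). The rule's late mean of 2012 gave each day equal weight, so libraries of day 42 counted more than the 50% libraries of day 32. The choice of members thus favours a rise in this interval, and these counts are not independent of it. No member fell (0 members, against 5.16%). In either direction, 70 members had an unadjusted p under 0.05, against 4520 of the 20460 gene models tested. The members' median change was 0.56 and that of all gene models 0.00. VIT_04s0043g00840 went from 4.47, 6.39 and 7.99 RPKM to 12.3, 19.1 and 21.1 RPKM, by 1.34 ± 0.21 (log2, SE, adjusted p = 8.74e-06), without overlap. In 2013 the late days were 35 and 37 only, and 2 members rose between them (0.22% of all gene models). These were VIT_09s0002g03340, by 0.81, and VIT_11s0016g02980, by 0.71. The latter went from 10.2 to 13.6 RPKM (median 11.3) to 17.8 to 20.5 RPKM (median 19.8), so that its libraries did not overlap.

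The day of the highest group mean is given as a description, since the rule required late means above day 21 in each season. Of the 100 members, 74 had their highest group mean of 2014 on day 49 and 70 their highest of 2013 on day 37. In 2012, 51 were highest on day 42 and 28 on day 34, days sampled at different thinning levels. The highest mean lay before day 0 in 20 members in 2012, 10 in 2013 and 5 in 2014, and on day 32 or later in all others. The lowest mean lay between day 0 and day 14 in 57, 66 and 48 members. The first sampled days differed between seasons, day -28 in 2012 and day -14 in 2013 and 2014.

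**Figure D3:**
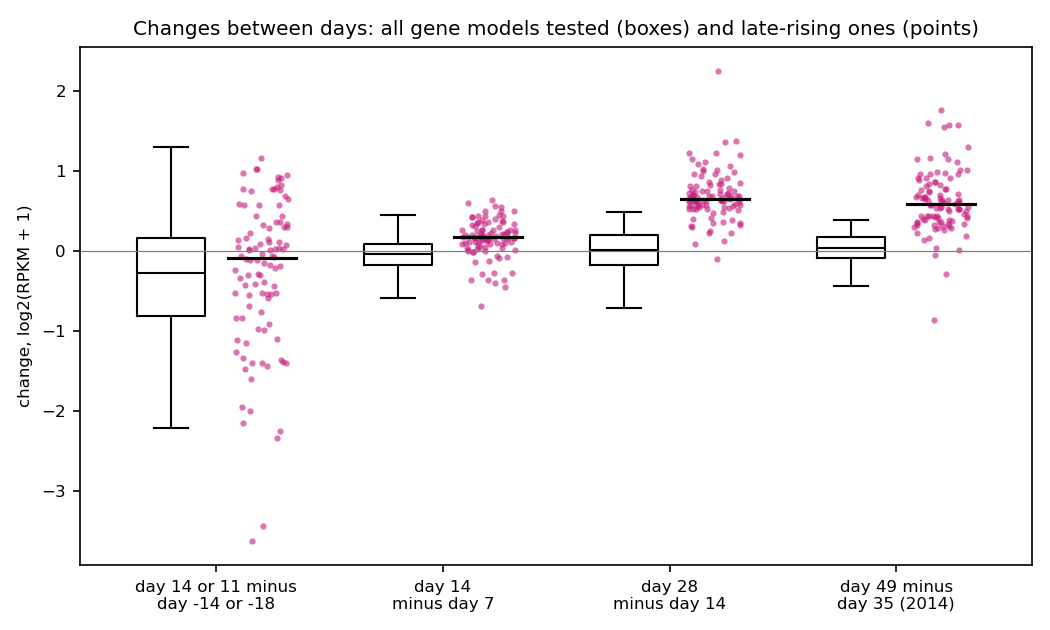
Change between days on the log2(RPKM + 1) scale in 4 intervals that the choice of members did not use as such. All 4 overlap in time with intervals that the rule used. Boxes show all 20460 gene models tested (median, quartiles and 5th to 95th percentile), points the 100 late-rising ones, and thick bars their medians. The members' medians are -0.09, 0.17, 0.65 and 0.58, against -0.28, -0.03, 0.02 and 0.03 for all gene models.

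The early ripening step, from green berries (day -14, or day -18 in 2012) to day 14 (day 11 in 2012), divided the members. By limma, 32 rose (26.2% of all gene models), 47 fell (58.2%) and 21 did not pass. Past a change of 1, 3 rose (6.91%) and 20 fell (19.7%). The share that fell past 1 was near that of all gene models. The rule's limit on the change from veraison to day 21 covers part of this interval. Gene models past that limit could not be members but count among all gene models. The members' counts past 1 can thus follow in part from the rule. The members' median change was -0.09 and that of all gene models -0.28. Quantile normalization, which gives every library the same distribution of values, moved the median of all gene models to 0.05 and that of the members to 0.21, with 54 members higher (45.3% of all gene models) and 30 lower (40.1%), so the balance of higher and lower members depends on the scaling.

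The 20 members that fell by at least 1 had a median level of 8.97 RPKM in green berries, 1.90 RPKM on day 11 or 14, 2.57 RPKM on day 21 and 9.95 RPKM late. Their late mean was above the green mean in 8 of 20. The 27 that fell by less went from 9.41 to 5.01, 6.83 and 15.9 RPKM, with the late mean above the green one in 24. The 29 that rose by less than 1 went from 2.02 to 3.30, 5.12 and 12.9 RPKM, and the 21 between from 2.19 to 2.20, 2.75 and 7.92 RPKM. The late mean was above the green one in 29 of 29 and 20 of 21 of these. The later rise from day 14 to day 28 was found in each class. It was called in 19 of 20, 26 of 27, 28 of 29, 18 of 21 and 3 of 3 members. Of all gene models tested, 28.7% rose by the same test. The libraries of day 14 enter both the early step and this rise, so the classes and these counts are not independent. A low level on day 14 favours both a fall in the early step and a later rise.

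VIT_18s0001g12110 fell most in the early step. It had 38.3 to 122 RPKM in green berries (median 81.4, n = 18) and 0 to 13.6 RPKM on day 11 or 14 (median 6.47, n = 18), a change of -3.63 ± 0.20 (log2, SE, limma, adjusted p = 6.79e-35). Its late values of 1.99 to 43.6 RPKM (median 18.6) overlapped those of green berries only between 38.3 and 43.6 RPKM. VIT_00s0323g00060 went from 16.9 to 113 RPKM (median 56.7) to 1.62 to 12.9 RPKM (median 3.31), a change of -3.44 ± 0.15 (adjusted p = 6.55e-45), and late to 10.8 to 30.3 RPKM (median 18.4). VIT_08s0040g01370 went from 136 to 314 RPKM (median 248) to 25.8 to 67.6 RPKM (median 41.2), a change of -2.34 ± 0.09 (adjusted p = 2.19e-50), and late to 67.6 to 262 RPKM (median 155). In these 3 members green berries and day 11 or 14 did not overlap.

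The 3 members that rose by at least 1 in the early step had rising medians from green berries to the late days. VIT_14s0006g02620 had 20.8 to 29.5 RPKM in green berries (median 24.3), 42.5 to 76.8 RPKM on day 11 or 14 (median 52.8) and 81.9 to 145 RPKM late (median 114), an early change of 1.16 ± 0.05 (log2, SE, limma, adjusted p = 3.43e-46). Its ranges did not overlap at any step. VIT_11s0052g00570 had 0 to 1.94 RPKM (median 0.448, listed at 0 in 1 library), then 0.892 to 5.40 RPKM (median 2.17) and late 1.88 to 14.2 RPKM (median 6.95), an early change of 1.02 ± 0.14, or 0.91 without replicate 2. VIT_01s0011g03540 had 0.627 to 24.5 RPKM (median 2.25), then 2.19 to 16.7 RPKM (median 6.85) and late 5.70 to 62.6 RPKM (median 20.7), an early change of 1.02 ± 0.18, or 0.85 without replicate 3. Both fell under a change of 1 in those settings, and also without replicates 1 and 2 of 50% thinning on day -18 of 2012, where VIT_11s0052g00570 changed by 0.93 and VIT_01s0011g03540 by 0.94. Of the 10 members of highest late level, VIT_03s0038g00590 rose by 0.97 ± 0.05, from 22.2 to 39.1 RPKM (median 33.2) to 51.8 to 72.5 RPKM (median 66.1), and VIT_18s0001g14730 by 0.80 ± 0.05, from 30.5 to 48.2 RPKM (median 44.1) to 63.9 to 105 RPKM (median 74.5). Neither overlapped.

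Some members were near 0 in green berries. VIT_12s0055g00400 and VIT_03s0017g02200 were listed at 0 in all 18 green libraries and had late means of 3.38 and 2.21 RPKM. VIT_08s0032g00240 had a mean of 0.0038 RPKM in green berries and 2.45 RPKM late. These 3 had the lowest green means of all members and are named after their values were seen. VIT_01s0011g04380 was listed at 0 in 5 of the 18 green libraries and reached 0.230 RPKM at most. It had 0.0741 to 0.848 RPKM on day 11 or 14 (median 0.315). VIT_09s0002g09120 was listed at 0 in 7 of the 18, with at most 0.306 RPKM, and in 8 of the 18 libraries of day 11 or 14. Its late values were 1.11 to 6.30 RPKM (median 2.82) and lay above every green library.

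Levels were compared between 2014 and 2013 on days -14, 7, 14 and 28, sampled in both seasons and outside the rule. Lower in 2014 were 47 members (limma, adjusted p under 0.05), against 26.2% of all gene models, and higher were 4, against 24.3%. The members' median difference was -0.16 and that of all gene models -0.01. Past a difference of 1 there were 2 members, both lower (2.37% of all gene models). On day 28 alone 36 members were lower (14.2%) and 0 higher (14.6%), and the median was -0.22. Of the 36, 6 were lower by at least 1 (2.89%). On that day 42 members had an unadjusted p under 0.05 in either direction, against 7711 of the 20460 gene models tested. Without replicate 2 of 50% thinning on day 28 of 2014, the library of lowest sugar content, 21 members were lower on day 28 (13% of all gene models), 5 of them by at least 1 (3.02%), and 1 was higher (14%). Over the 4 days 42 were then lower (25.2%), 1 of them by at least 1 (2.37%), and 6 higher (24%). Without replicate 2 of every group 17 were lower on day 28, against 12% of all gene models. Sugar content on day 28 was 21.03 to 24.04 g per 100 ml in 2013 and 18.33 to 24.15 in 2014. On day -14 it was 0.99 to 1.41 in 2013 and 0.69 to 0.94 in 2014. On day 7 it was 13.34 to 15.94 in 2013 and 11.32 to 13.49 in 2014. On day 14 it was 16.88 to 20.38 in 2013 and 14.54 to 18.04 in 2014. On day 0, outside this comparison, it was 9.25 to 11.12 in 2013 and 1.4 to 2.15 in 2014. The same labelled day thus stood for different sugar contents in the seasons, with lower medians in 2014 on each of these days. The part of sugar content in the difference was not tested.

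VIT_00s1959g00010 differed most between the seasons. On day 28 it had 13.4 to 17.9 RPKM in 2013 (median 14.2, n = 6) and 0.767 to 2.72 RPKM in 2014 (median 1.91, n = 6), and over the 4 days the difference was -2.37 ± 0.11 (log2, SE, limma, adjusted p = 1.47e-41). On the late days it had 17.0 to 32.8 RPKM in 2012, 14.5 to 28.4 RPKM in 2013 and 1.45 to 6.02 RPKM in 2014. The libraries of 2014 lay below all those of the other seasons on these days. Within 2014 it stood at 1.12 to 2.24 RPKM on day 21. VIT_00s2207g00010 had 55.6 to 78.0 RPKM on day 28 of 2013 (median 67.4) and 23.6 to 46.8 RPKM in 2014 (median 41.0), without overlap, and a difference of -1.01 ± 0.10 (adjusted p = 3.14e-15), or -0.96 without replicate 2 of every group and -0.98 without the day 28 library of lowest sugar content, both short of a difference of 1. VIT_11s0037g00890 was among the 4 that were higher in 2014, by 0.41 ± 0.11 (adjusted p = 0.00114).

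The rise from day 14 to day 28 itself differed between the seasons in 14 members. In 12 it was smaller in 2014 (7.34% of all gene models) and in 2 it was larger (8.38%). With all libraries, such a difference was no more frequent among the members than among all gene models, counting both directions. An unadjusted p under 0.05 by limma was found in 27 members, against 5881 of the 20460 gene models tested. Without replicate 2 of 50% thinning on day 28 of 2014, 8 rises were smaller (8.68%) and 7 larger (10.9%). Leaving out replicate 1, 2 or 3 of every group gave 4, 3 and 11 smaller rises (2.43%, 7.93% and 3.05%). In the same order 0, 5 and 0 were larger (2.12%, 12.7% and 2.5%). VIT_11s0037g00890 rose by 1.27 ± 0.23 in 2013 (log2, SE), from 0.0567 to 0.700 RPKM (median 0.387) to 0.955 to 4.23 RPKM (median 2.46). In 2014 it went from 0.376 to 3.08 RPKM (median 1.21) to 0.538 to 2.30 RPKM (median 1.16). Its libraries of both days were apart in 2013 and overlapped fully in 2014, and the difference of the changes was -1.28 ± 0.32 (limma, adjusted p = 0.00239). The call was lost without replicate 1 (-1.18) and without replicate 2 (-0.95). VIT_00s0323g00060 showed the opposite, with 3.22 to 12.9 RPKM on day 14 of 2013 (median 7.25) and 1.62 to 3.31 RPKM on day 14 of 2014 (median 2.41), against 7.27 to 13.3 and 5.58 to 12.9 RPKM on day 28. Its rise was larger in 2014 by 1.01 ± 0.36 (adjusted p = 0.0379), a call that was lost with quantile normalization (0.94), without replicate 1 (1.01) and without replicate 3 (0.67).

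VIT_18s0041g01230 had 4.11 to 6.83 RPKM on day 14 and 10.4 to 14.2 RPKM on day 28 of 2013, and 4.18 to 5.93 and 5.25 to 7.57 RPKM in 2014. The difference of its changes was -0.69 ± 0.20 (limma, adjusted p = 0.00936), a call lost without replicate 2 (-0.47). VIT_14s0083g00880 had 11.1 to 16.5 and 27.3 to 33.1 RPKM in 2013, and 12.0 to 15.7 and 14.7 to 20.3 RPKM in 2014, a difference of -0.69 ± 0.16 (adjusted p = 0.00134). In both members the seasons overlapped on day 14, and day 28 was lower in 2014 without overlap. On the late days VIT_18s0041g01230 had 12.4 to 20.7 RPKM in 2013 and 10.2 to 23.6 RPKM in 2014. VIT_14s0083g00880 had 30.6 to 46.7 and 26.5 to 48.4 RPKM, so the seasons overlapped in both. VIT_11s0016g02980 had 4.86 to 7.69 RPKM on day 14 of 2013 and 2.12 to 2.80 RPKM on day 14 of 2014, against 3.44 to 13.8 and 3.42 to 9.34 RPKM on day 28, a difference of 0.76 ± 0.24 (adjusted p = 0.0209), a call lost without replicate 1 (0.70) and without replicate 3 (0.61).

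**Figure D4:**
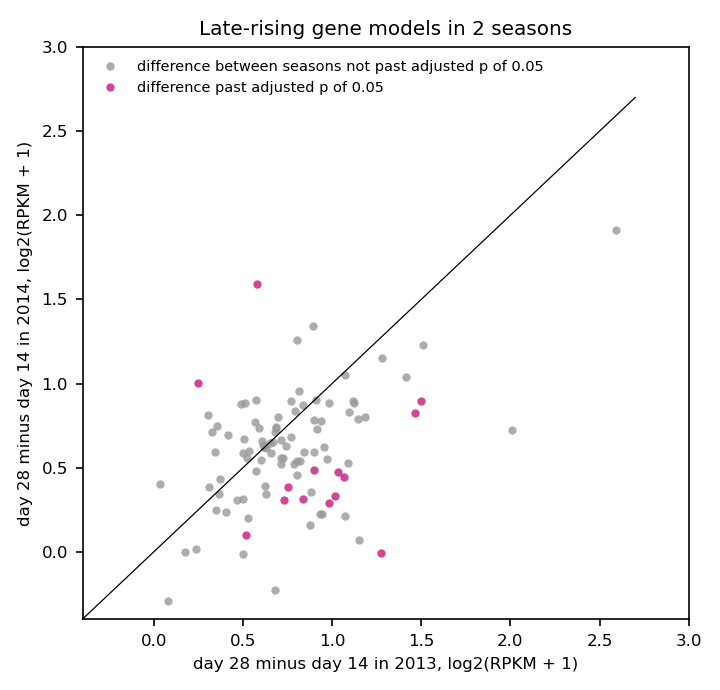
Change from day 14 to day 28 in 2013 and in 2014 for the 100 late-rising gene models, on the log2(RPKM + 1) scale. The line marks equal changes, and coloured points are the 14 members whose change differed between the seasons by limma. Of these 12 lie below the line and 2 above it.

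Thinning was compared on the late days sampled at both levels, day 32 of 2012, days 35 and 37 of 2013 and days 35, 42 and 49 of 2014. The rule had averaged over thinning. With the seasons weighted equally, 4 members were higher at 75% than at 50% thinning (limma, adjusted p under 0.05), against 0.088% of all gene models, and 0 were lower, against 0.2%. At an unadjusted p under 0.05 there were 25 members, against 1462 of the 20460 gene models tested. The members' median difference was 0.12 and that of all gene models 0.00, and by season the members' median was 0.25, 0.14 and -0.06 in 2012, 2013 and 2014. Sugar content was mostly higher at 75% than at 50% thinning on day 32 of 2012 and mostly lower on day 42 of 2014. Its part in these differences was not tested. Without replicate 1 or 2 of every group 0 members were higher (0% and 0.0147% of all gene models). Without replicate 3 there was 1 (0.0391%), and with a pseudocount of 0.1 there were 0 (0.0489%).

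VIT_02s0025g01990 had 3.40 to 12.3 RPKM at 50% thinning (median 6.67, n = 18) and 5.88 to 17.8 RPKM at 75% (median 9.75, n = 18), a difference of 0.61 ± 0.14 (log2, SE, adjusted p = 0.0315). VIT_18s0001g14920 had 0.688 to 6.47 RPKM (median 1.72) and 1.73 to 6.33 RPKM (median 3.03), a difference of 0.46 ± 0.10 (adjusted p = 0.0134). VIT_09s0002g09120 had 1.11 to 4.71 RPKM (median 2.08) and 1.94 to 5.84 RPKM (median 3.16), a difference of 0.39 ± 0.10 (adjusted p = 0.0388). In each of these the day mean was higher at 75% on 6 of 6 matched days, while the ranges of the libraries overlapped widely. VIT_04s0043g00840 was higher at 75% on 5 of 6 days, with 4.47 to 51.2 RPKM at 50% (median 11.4) and 8.29 to 43.4 RPKM at 75% (median 13.2), a difference of 0.39 ± 0.10 (adjusted p = 0.0388).

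Within 2012 and within 2013, 0 members passed (0.00489% and 0.0244% of all gene models were higher). At an unadjusted p under 0.05 there were 27 and 15 members, against 1219 and 1196 of the 20460 gene models tested. VIT_04s0043g00840 had 4.47, 6.39 and 7.99 RPKM at 50% and 9.91, 11.0 and 11.5 RPKM at 75% in 2012, without overlap, and a difference of 0.73 ± 0.21 (log2, SE). In 2014 its difference was -0.03 ± 0.12, with 6.82 to 51.2 and 8.29 to 43.4 RPKM. VIT_02s0025g01990 differed by 0.75 ± 0.32, 0.84 ± 0.23 and 0.24 ± 0.19 in the 3 seasons, and VIT_18s0001g14920 by 0.46 ± 0.22, 0.61 ± 0.16 and 0.30 ± 0.13. VIT_09s0002g09120 differed most in 2014, by 0.61 ± 0.12, the member called in a single season (limma, adjusted p = 0.00454, against 0.244% of all gene models), with 1.11 to 4.71 RPKM at 50% and 2.56 to 5.84 RPKM at 75%. Whether these seasonal differences differ from each other was not tested. The rise from day 21 to the late days passed the test of a difference between thinning levels in 0 members by limma. Of all gene models, 0.00489% were higher at 75%. An unadjusted p under 0.05 was found in 2 members, against 557 of the 20460 gene models tested.

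**Figure D5:**
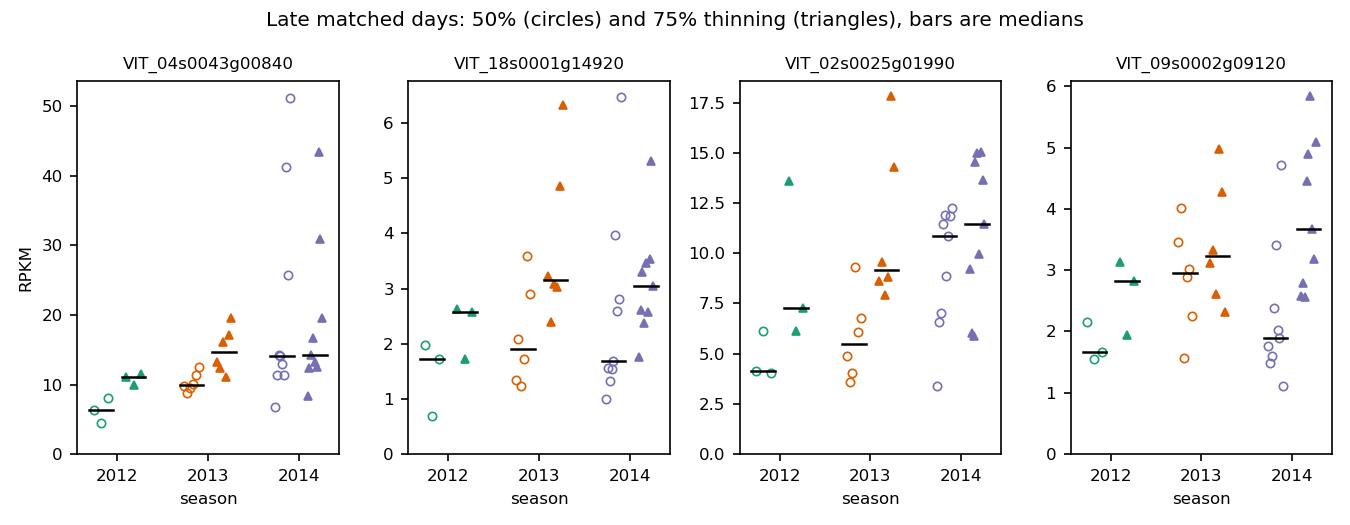
RPKM of the 4 members that differed between thinning levels, in every library of the late days sampled at both levels. Circles are 50% and triangles 75% thinning, bars are medians, and seasons stand side by side. The medians at 75% lie above those at 50% in all 3 seasons, by least in VIT_04s0043g00840 in 2014, and the libraries overlap except in VIT_04s0043g00840 in 2012 and VIT_02s0025g01990 in 2012.

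Neighbouring IDs were rare among the members. Within 100 units of the last number of the ID there were 3 pairs with 5 members, VIT_00s0183g00050 with VIT_00s0183g00060, VIT_12s0028g00980 with VIT_12s0028g01000, and the latter with VIT_12s0028g01030. Reads shared between near-identical copies could be divided between such gene models. IDs that start with 00 made up 14% of the members and 8.04% of the gene models tested, and what that number stands for is not given in the files.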

How the data were processed

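RNA of pooled berry pericarp was sequenced as non-directional libraries, per the labels' protocols, so overlapping and antisense gene models cannot be told apart. The authors deposited 1 table of RPKM values for 29971 gene models in 165 libraries. TopHat2 2.0.6 and Cufflinks 2.0.2 are listed, without their roles, in the submitters' processing notes, and the genome build is not given in the sources used here. The table holds no counts, and its low values were not whole multiples of a common step, so sequencing depth is unknown and counting intervals are left out.

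From this table, log2(RPKM + 1) of 20460 gene models with at least 1 RPKM in at least 3 libraries was fitted with limma 3.58.1 (R 4.3.3), with a mean for each of 55 groups and a trend of the variance with level. P-values were adjusted by Benjamini-Hochberg over all gene models tested. A call is an adjusted p under 0.05, and where stated also a change of at least 1. Tables and figures were made with Python 3.11.15, pandas 2.3.3, numpy 2.4.6 and matplotlib 3.10.9, and the fit was tested on simulated data.

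The members and lists were chosen with earlier results of these data known. Members named are the 10 with the largest rule values, the 10 with the highest late RPKM, up to 3 called in each direction of a comparison, and 3 on each side of the limit, except where stated. The IDs matched 0 entries of the RefSeq gene table, so lists by function, marker checks of the tissue and sequences were not used here. Alternatives were a pseudocount of 0.1, no filter, quantile normalization, replicate numbers as a block, and leaving out replicates. The exclusions of single libraries and of 2012 were chosen after seeing the data.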

Additional observations from a re-analysis of the deposited data

Results flagged for a closer look

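The rise from day 14 to day 28 differed between 2013 and 2014 by a test of the difference itself (limma, adjusted p under 0.05). It was larger in 2014 in 2 members (8.38% of all gene models), by 1.01 in VIT_00s0323g00060 and by 0.76 in VIT_11s0016g02980 on the log2(RPKM + 1) scale. It was smaller in 2014 in 12 members (7.34% of all gene models), among them VIT_11s0037g00890 with a difference of -1.28, VIT_18s0041g01230 with -0.69 and VIT_14s0083g00880 with -0.69. With all libraries, such a difference was no more frequent among the members than among all gene models, counting both directions. The rise was larger in 7 members (10.9%) and smaller in 8 (8.68%) without replicate 2 of 50% thinning on day 28 of 2014. Leaving out replicate 1, 2 or 3 of every group lost the call of each of these members except VIT_14s0083g00880 in at least 1 case, and quantile normalization that of VIT_00s0323g00060.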

How the results depend on the processing

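A pseudocount of 0.1 in place of 1 gave 41 members past a change of 1 from day 14 to day 28 (1.52% of all gene models), 33 in 2014 alone (2.22%), 17 higher past it in the early step (9.66%), 19 from day 35 to day 49 of 2014 (0.714%), 4 lower in 2014 than in 2013 (4.34%), and 0 higher at 75% thinning (0.0489%), and shared 43 of the 100 members of the rule. Quantile normalization gave 54 members higher (45.3%) and 30 lower (40.1%) in the early step, 16 (10.8%) and 10 (12.9%) past a change of 1, 10 higher in 2014 (37%), and 1 with a larger rise in 2014 (10.8%). Without replicates 1 and 2 of 50% thinning on day -18 of 2012, 1 library of that group is left, so counts are not given. Without 2012, 1 member was higher past 1 in the early step, against 1413 of the 20460 gene models tested. Leaving out replicate 1, 2 or 3 of every group gave 6 to 24 members past 1 from day 14 to day 28 of 2014, 37 to 76 higher on day 49 than on day 35, 0 to 1 higher at 75% thinning, 1 to 3 higher and 1 to 3 lower past 1 in 2014, 17 to 33 lower on day 28 of 2014, and 0 to 5 with a larger and 3 to 11 with a smaller rise in 2014. Without replicate 2 of 50% thinning on day 28 of 2014, 20 members passed 1 from day 14 to day 28 of 2014 (1.19%) and 7 had a larger rise in 2014 (10.9%). In that setting 6 were higher (24%) and 1 was lower past 1 over 4 days (2.37%), and 1 was higher (14%) and 21 lower (13%) on day 28. Of 170 values of 22 named calls under these settings, 145 kept the call, 25 lost it and 0 reversed. The cause was not tested.

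Replicate numbers were not shown to pair the samples: same-numbered libraries deviated together (r over 0.1) in 3 of 12 pairs for days 14 and 28, 1 of 6 for days 35 and 49, 6 of 18 for the early step, 11 of 24 for the seasons and 4 of 18 for thinning. With the number as a block, 94 members rose from day 14 to day 28 (29.3% of all gene models), and 33 were lower in 2014 than in 2013 (19.9%) in place of 47.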
